A study of Chlamydomonas reinhardtii with 3 samples.

Results

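The 10 genes described here encode inorganic carbon transporters, low-CO2-inducible (LCI) proteins, a pyrenoid linker and a regulator of the carbon concentrating mechanism of the green alga Chlamydomonas reinhardtii. They were picked out by locus identifier, with no threshold on a measured value, and are LCIA (Cre06.g309000), LCIB (Cre10.g452800), LCIC (Cre06.g307500), LCI1 (Cre03.g162800), HLA3 (Cre02.g097800), CCP1 (Cre04.g223300), CCP2 (Cre04.g222750), EPYC1 (Cre10.g436550), CIA5 (Cre02.g096300) and BST1 (Cre16.g662600). They are 10 of the 17527 entries of the methylation table, and all 10 are among the 17326 genes with a level in both genotypes. The reference table of assembly Chlamydomonas_reinhardtii_v5.5 holds all 10 loci but gives 0 of them a symbol, so the names come from the fixed list and could not be checked against the files.

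The measurement was whole-genome bisulfite sequencing of genomic DNA, in which methylated cytosine is read as cytosine and unmethylated cytosine as thymine. There were 3 libraries, all of strain CC125, 1 of wild type and 2 of a cmd1 knockout (cmd1 KO). CMD1 is the TET homolog named in the series' title, and enzymes of the TET family act on 5-methylcytosine. Cells of both genotypes were grown mixotrophically in TAP medium at 25 °C and 20 μmol photons per square metre and second, then moved to Sueoka's high salt medium and exposed to light of 300 μE. The labels do not give the CO2 supply, the kind of lesion in cmd1 KO, the number of clones behind it or how the vitamin C-derived base reads after bisulfite treatment.

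When inorganic carbon is scarce, Chlamydomonas takes up bicarbonate through transporters in its plasma membrane and chloroplast envelope, moves it into thylakoids that cross the pyrenoid, and releases CO2 there beside a dense matrix of Rubisco. Many genes of this system are known to be induced by low CO2 under the control of CIA5. Cytosine methylation of nuclear genes is known to be low in this alga outside repeats. Transcripts were not analysed here, so the values below describe DNA methylation and not expression.

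The table gives each gene 1 mean level per genotype, over a number of sites listed for it. The cmd1 KO column is a single value although the genotype has 2 libraries, and neither the labels nor the file header say whether it pools them. No spread between replicates and no test between genotypes could therefore be had, and every difference describes these libraries. The read depth behind the levels is unknown, because the numbers are of sites and not of reads. The 10 genes had 979 listed sites in wild type, from 39 in LCI1 to 149 in CCP1, and 281 in cmd1 KO, from 6 in CIA5 to 51 in CCP1.

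All 10 genes were little methylated in wild type and had a higher deposited level in cmd1 KO. Wild type levels ran from 0.877% to 1.53%, with a median of 1.20% against 1.05% over all genes. The cmd1 KO levels ran from 4.58% to 10.5%, with a median of 5.63% against 5.89% over all genes. The lowest cmd1 KO level of the 10 genes lay above their highest wild type level. The same holds among all genes under 2% in wild type, 90.6% of the table, since no cmd1 KO level of any gene was below 2.05%. A higher level in cmd1 KO was found in 10 of 10 genes, but also in 99.1% of all 17326 genes, so this direction was the background of the table. The median difference of the 10 genes was 4.58 percentage points, beside 4.73 points over all genes. A difference of at least 10 points towards cmd1 KO was found in 0 of the 10 genes, where the share over all genes was 3.50%. A difference of that size towards wild type was found in 0 of the 10 and in 0.0923% of all genes. At least 5 points were reached by 3 of the 10 (CCP1, LCIC and LCIB) and by 41.7% of all genes.

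**Figure D1:**
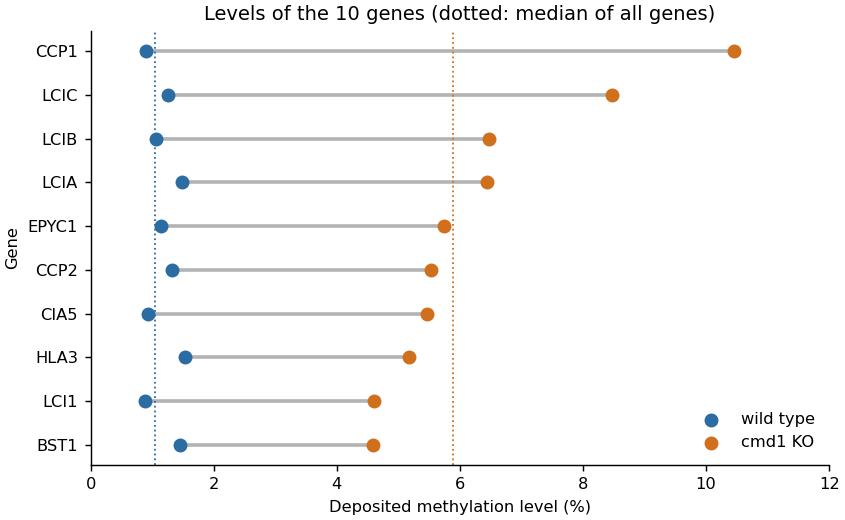
Deposited methylation level in percent (horizontal axis) of each gene (vertical axis, ordered by the cmd1 KO level), with wild type in blue, cmd1 KO in orange and dotted lines at the medians of all genes, 1.05% and 5.89%. The wild type points crowd between 0.877% and 1.53%, while the cmd1 KO points spread from 4.58% to 10.5%, with CCP1 and LCIC apart from the other 8.

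By their deposited levels, the plasma membrane transporters were among the genes with small differences. HLA3, an ABC transporter of bicarbonate, had the highest wild type level of the 10, 1.53% over 88 sites, and had 5.17% over 46 sites in cmd1 KO. The gap of 3.64 points was larger than in 17.0% of all genes. LCI1, a plasma membrane protein of inorganic carbon uptake, had the lowest wild type level of the 10, 0.877% over 39 sites. It stood at 4.60% in cmd1 KO over only 7 sites, 3.72 points higher, a gap larger than in 19.3% of all genes. The genes at both ends of the wild type order thus differed by nearly the same number of points.

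In the chloroplast, LCIA and BST1 act at successive membranes, and BST1 had the smallest difference of all 10 genes. LCIA, a bicarbonate transporter of the chloroplast envelope, had a level of 1.48% (128 sites) in wild type and 6.44% (25 sites) in cmd1 KO. Its difference of 4.97 points lay near the middle of the table, above that of 57.4% of all genes. BST1, a bestrophin-like protein of the thylakoid membrane, had a level of 1.45% (116 sites) in wild type and 4.58% (26 sites) in cmd1 KO. The gap of 3.14 points was larger than in only 7.84% of all genes, and its cmd1 KO level was the lowest of the 10.

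CCP1 and CCP2 encode closely similar proteins of the mitochondrial carrier family, and their deposited levels in cmd1 KO differed from each other. CCP1 had a level of 0.905% (149 sites) in wild type and 10.5% (51 sites) in cmd1 KO. Its gap of 9.55 points was the largest of the 10 and larger than in 96.1% of all genes, yet it lay just under 10 points. CCP2 had 1.33% (138 sites) and 5.53% (44 sites), a gap of 4.20 points, larger than in 33.1% of all genes. In cmd1 KO the CCP1 level was 1.89 times that of CCP2, whereas in wild type CCP1 was 0.42 points lower (CCP1 minus CCP2, -0.42 points). Reads shared between such similar copies can be placed in either one, and the labels do not say how the authors placed them, so the separate values of the pair are uncertain.

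LCIB and LCIC, which form a complex near the pyrenoid that is thought to recapture leaking CO2, took the next places in the order of differences. LCIC had a level of 1.26% (75 sites) in wild type and 8.47% (21 sites) in cmd1 KO. This gap of 7.21 points was larger than in 90.3% of all genes. LCIB had 1.06% (94 sites) and 6.47% (26 sites), a gap of 5.41 points, larger than in 68.4% of all genes. The partners were 0.20 points apart in wild type and 2.01 points apart in cmd1 KO, with LCIC higher in both. With 1 value per genotype, it could not be tested whether partners, or neighbours in any of these orders, differ.

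The pyrenoid linker and the regulator had intermediate values. EPYC1, the repeat protein that links Rubisco into the pyrenoid matrix, had a level of 1.14% (103 sites) in wild type and 5.74% (29 sites) in cmd1 KO. The gap of 4.61 points was larger than in 46.3% of all genes. CIA5, the zinc-finger regulator of the response to low CO2, had a level of 0.924% (49 sites) in wild type and 5.47% (6 sites) in cmd1 KO. The gap of 4.54 points was larger than in 44.1% of all genes and rested on the fewest cmd1 KO sites of the 10.

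**Figure D2:**
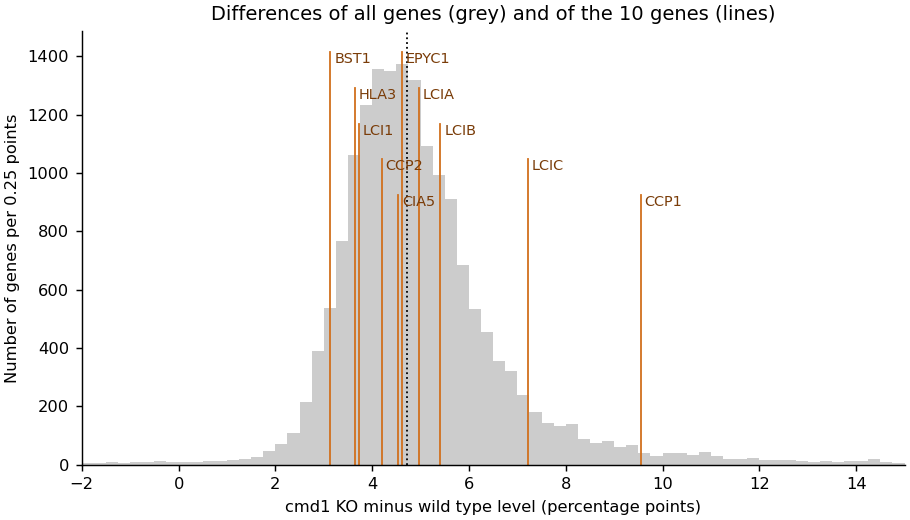
Number of genes per 0.25 points (vertical axis) by the cmd1 KO minus wild type level in percentage points (horizontal axis), with all genes in grey, their median of 4.73 points dotted and the 10 genes as orange lines. The axis ends at -2 and 15 points and leaves 292 genes outside. 8 of the 10 genes stand between 3.14 and 5.41 points, with BST1 the lowest, above only 7.84% of all genes. LCIC and CCP1 stand higher at 7.21 and 9.55 points, above 90.3% and 96.1% of all genes.

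The order of the genes in wild type was not their order in cmd1 KO. CCP1 was 9th of 10 in wild type and 1st in cmd1 KO, while HLA3 was 1st in wild type and 8th in cmd1 KO, and BST1 went from 3rd to 10th. The wild type order rested on small steps, with at most 0.13 points between neighbours. In cmd1 KO the steps below CCP1 and below LCIC, 1.98 and 2.01 points, were the only ones over 1 point. As a ratio of the levels, cmd1 KO to wild type, the genes ran from 3.17 in BST1 and 3.38 in HLA3 to 6.72 in LCIC and 11.5 in CCP1. The median ratio was 5.15, beside 5.52 over all genes with a wild type level above 0.

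By role, the 6 genes of membrane transport (HLA3, LCI1, LCIA, BST1, CCP1 and CCP2) held both the largest difference and the smallest. Their median difference was 3.96 points, beside 4.73 points over all genes. Only CCP1 among them reached 5 points, as did 41.7% of all genes, and LCIA lay just under at 4.97 points. The other 4 genes (LCIB, LCIC, EPYC1 and CIA5) had a median of 5.01 points, with values from 4.54 to 7.21 points. Of these, 2 reached 5 points. With only 6 and 4 genes, a difference between the roles was not tested. Of the 10 genes, 4 differed by more than the median of all genes and 6 by less.

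After Benjamini-Hochberg adjustment over 17326 genes, p in the authors' deposited table was under 0.05 in all 10 genes, as in 97.6% of all genes in this direction. In the authors' deposited table the adjusted p ranged from 1.54e-21 in CCP1 to 4.68e-04 in CIA5 and 5.88e-04 in LCI1, the genes with the fewest cmd1 KO sites. The labels do not name the test behind these p-values, and with 1 value per genotype in the table they give no check against the spread between replicates.

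The lists of sites behind the levels differed in length between the genotypes in every one of the 10 genes. More sites were listed in wild type in 10 of 10, as in 96.4% of all genes, and the median of cmd1 KO sites divided by wild type sites was 0.28 beside 0.31 over all genes. HLA3 had the highest ratio of the 10, 0.52, above that of 90.5% of all genes. CIA5 had 0.12, above that of only 0.219% of all genes, and LCI1 had 0.18 and LCIA 0.20. The genes with few cmd1 KO sites for their wild type sites were thus spread over the regulator, a plasma membrane protein and an envelope transporter.

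**Figure D3:**
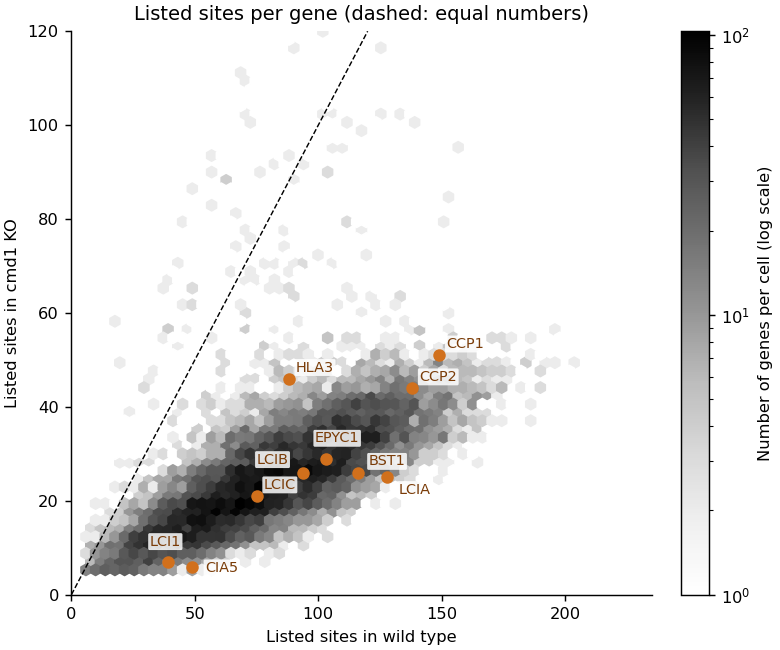
Listed sites per gene in wild type (horizontal axis) and cmd1 KO (vertical axis), with all genes as grey cells (number of genes on a log scale), the 10 genes as orange points and equal numbers dashed. The vertical axis ends at 120 sites and leaves 325 genes outside. All 10 genes lie below the dashed line. HLA3 lies in the upper part of the cloud with 88 and 46 sites. CIA5 lies at the lower edge of the cloud with 49 and 6.

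The levels were also set against what lists of distinct values allow. Multiplied by its site number, each deposited level fell on a step of 0.001 (100% of genes, tolerance 1e-06), as means of site values given in such steps would, and a list of values that are all distinct has a least possible mean. In all 10 genes the wild type level lay below that least mean, as in 91.3% of all genes, so their wild type lists held repeated values. In CCP1, for example, the least mean of 149 distinct values is 7.40% and the deposited level was 0.905%. No cmd1 KO level lay below its least mean (0 of 10 genes, and 0 of 17326 over the table). The least mean falls with the length of the list, and the cmd1 KO lists of the 10 genes were shorter. Their least means ran from 0.25% in CIA5 to 2.50% in CCP1, against 1.90% in LCI1 to 7.40% in CCP1 in wild type. The labels do not say whether repeated values were kept in cmd1 KO, and the part of unlike lists in the higher cmd1 KO means was not tested.

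The sum of the site values does not change with the number of sites at 0, and by this measure the 10 genes split. The summed level (mean times listed sites) was larger in cmd1 KO for 6 genes and larger in wild type for 4, while it was larger in cmd1 KO for 92.9% of all genes. A list that left out repeated values above 0 would have too low a sum. In CCP1 the sum was 1.35 in wild type and 5.33 in cmd1 KO, a ratio of 3.95, the largest of the 10. The sums were 0.945 and 1.78 in LCIC, 1.34 and 2.38 in HLA3, and 0.992 and 1.68 in LCIB. They were nearer to each other in EPYC1, with 1.17 and 1.67, and in CCP2, with 1.83 and 2.43.

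The 4 genes whose sum was higher in wild type were LCIA, BST1, CIA5 and LCI1. They also had the lowest ratios of cmd1 KO to wild type sites, 0.20, 0.22, 0.12 and 0.18. The other 6 genes had ratios from 0.28 in LCIB to 0.52 in HLA3. The split thus ran along the relative length of the lists, and the part of list length in it was not tested. The summed level of LCIA was 1.89 in wild type and 1.61 in cmd1 KO, and that of BST1 was 1.68 and 1.19. CIA5 had 0.453 and 0.328, and LCI1 had 0.342 and 0.322. No site can exceed the sum of its list, so no listed site of LCI1 stood above 34.2% in wild type or 32.2% in cmd1 KO, and none of CIA5 above 45.3% or 32.8%.

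Dividing the cmd1 KO sum by the wild type site number, as if every unlisted cmd1 KO site stood at 0, gives a lowest level for that number of sites. CCP1 then stood at 3.58%, HLA3 at 2.70% and LCIC at 2.37%, differences of 2.67, 1.17 and 1.11 points from wild type. LCIB, EPYC1 and CCP2 stood 0.73, 0.48 and 0.43 points above wild type. BST1 stood at -0.42 points, CIA5 at -0.26, LCIA at -0.22 and LCI1 at -0.05 points from wild type. With 1.52 times the wild type site number, the median site ratio of 150 genes whose wild type level was 40% or more, 4 of 10 genes (CCP1, LCIC, HLA3 and LCIB) were above wild type, beside 62.9% of all genes. With 2.02 times, the 95th percentile of that ratio, only CCP1 was above, by 0.87 points, beside 33.6% of all genes. CCP1 had the largest difference of the 10 as deposited and under each of these denominators. The denominators all rescale the same cmd1 KO sum, so they are not separate checks of its place. The negative values follow from counting unlisted sites as 0 and do not show a loss of methylation.

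**Figure D4:**
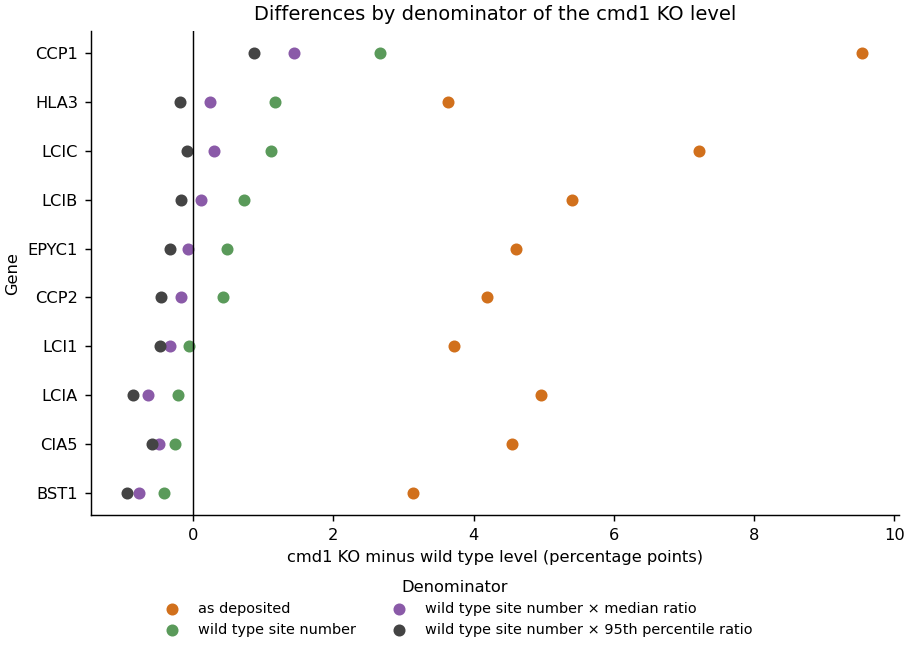
The cmd1 KO minus wild type level in percentage points (horizontal axis) of each gene (vertical axis) as deposited and with the summed cmd1 KO values divided by the wild type site number, or by 1.52 or 2.02 times that number. Every gene moves towards or past 0, and CCP1 is the only one above 0 under all 4, from 9.55 points as deposited to 0.87 points. The changed denominators rescale the same cmd1 KO sum and are not separate checks.

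CCP2 and CCP1 stand on chromosome 4 with 10 genes between them in the order of the reference, all with levels. The 10 genes between ranged from 0.174% to 1.57% in wild type and from 2.78% to 10.3% in cmd1 KO. Their differences had a median of 4.95 points. CCP1 differed by more than all 10 of them, and CCP2 by less than 7 of them. CCP1 also had the most cmd1 KO sites, 51, against at most 40 in the 10 genes between. Its cmd1 KO level exceeded that of 92.1% of all genes, but of 79.9% of genes with a like number of cmd1 KO sites (within 5). The nearest value to CCP1 was that of Cre04.g223150, 4 genes before it, which had a level of 1.40% (74 sites) in wild type and 10.3% (30 sites) in cmd1 KO, 8.94 points more. The genes on either side of CCP1 were lower, with 6.18 points in Cre04.g223250 and 3.88 points in Cre04.g223350.

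**Figure D5:**
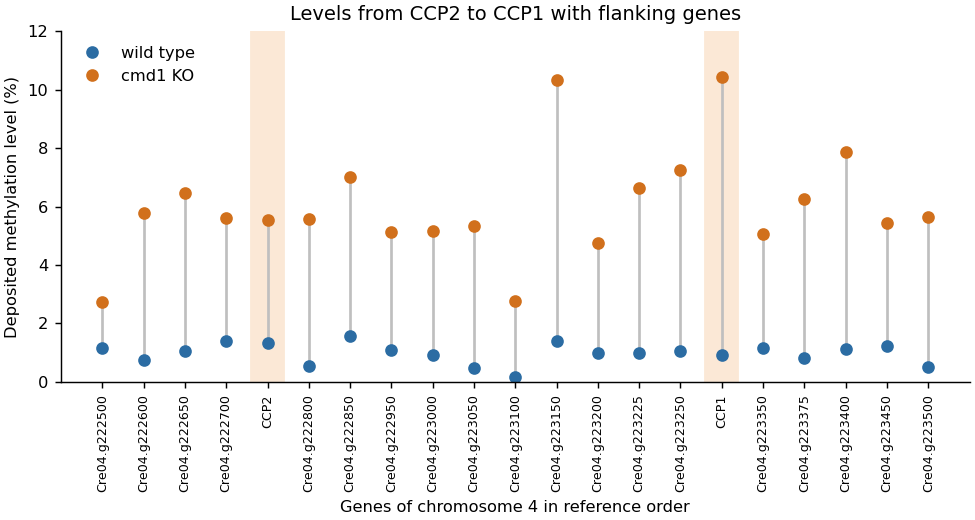
Deposited level in percent (vertical axis) in wild type (blue) and cmd1 KO (orange) of the 21 genes with levels along chromosome 4, from 5 genes before CCP2 to 5 genes after CCP1 in reference order (horizontal axis, not to distance), with CCP2 and CCP1 shaded. CCP1 and Cre04.g223150 stand highest in cmd1 KO at 10.5% and 10.3%, and no wild type level exceeds 1.57%.

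The other genes were compared with their neighbours in the same way, taking 5 genes on each side. Of these 100 neighbours 96 had levels, and all 96 were higher in cmd1 KO, beside 99.1% of all genes. Their median difference was 4.80 points, beside 4.73 points over all genes. In 9 of the 10 genes the difference lay within the range of the neighbours, and in CCP1 it lay above all 10. The share of all genes that lie outside the range of their own neighbours was not computed. These counts therefore do not show whether such a place is unusual. LCIC exceeded 9 of its 10 neighbours, and BST1 only 1 of the 7 that had levels. LCIA had a higher wild type level than all 10 of its neighbours (1.48% against at most 1.13%), and BST1 than all 7 of its own (1.45% against at most 1.39%). Among all genes these wild type levels exceeded only 79.9% and 78.9%. HLA3, the highest of the 10 genes in wild type, exceeded 8 of its 10 neighbours. A difference of at least 10 points was found in 2 of the 96 neighbours, beside 3.50% of all genes, and both lay near CIA5. Cre02.g096450, 3 genes after CIA5, had 1.49% (72 sites) and 13.2% (29 sites). Cre02.g096500, 5 genes after it, had 1.77% (78 sites) and 17.1% (40 sites). The smallest differences among the neighbours were 1.58 points in Cre04.g222500, near CCP2, and 2.61 points in Cre04.g223100, near CCP1.

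A list of 13 further loci of the same system, assigned from the published nomenclature, was set beside the 10 genes. It holds 5 carbonic anhydrases, 2 bestrophins, 2 Rubisco small subunits, 2 pyrenoid proteins, 1 relative of LCIB and 1 regulator, and neither the files nor the reference annotate these loci with names. Cre04.g222800, Cre04.g223050 and Cre04.g223100 on this list also lie between CCP2 and CCP1. They were therefore counted among the neighbours above as well. All 13 were higher in cmd1 KO (13 of 13, beside 99.1% of all genes), 0 of them by 10 points (beside 3.50%). Their median level was 0.865% in wild type and 5.60% in cmd1 KO, and their median difference was 5.05 points. The 2 largest differences were 7.61 points in Cre16.g663450, on the list as a bestrophin, and 7.33 points in Cre02.g120100, on the list as a Rubisco small subunit. The 2 smallest were 2.61 points in Cre04.g223100, over 5 cmd1 KO sites, and 4.06 points in Cre09.g399552. The 5 loci listed as carbonic anhydrases lay between 2.61 and 5.26 points, and all 5 below LCIB, LCIC and CCP1. The summed level was higher in cmd1 KO in 13 of these 13 loci, beside 6 of the 10 genes and 92.9% of all genes.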

How the data were processed

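Fragments of near 300 bp were bisulfite converted (near 500 ng, spiked with some 2% of unmethylated lambda DNA), per the labels' protocols. FastQC 0.11.5, Trimmomatic 0.36 and BSMAP were used, per the submitters' processing notes. Genome build, annotation, region per gene, cytosine contexts and coverage minimum were not given in the sources used here. Per the file headers, the deposited table holds for each gene the number of sites, the methylation level as a fraction (printed here as percent), a ratio of the levels and an unadjusted p-value. The deposited ratio was not used; ratios were computed from the levels.

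201 entries without a level were left out. Differences, ratios, ranks and Benjamini-Hochberg adjustment were computed over 17326 genes (Python 3.11.15, numpy 2.4.6, pandas 2.3.3), and the adjustment was tested on simulated data. A difference was counted from 10 percentage points. Neighbours follow the order of the reference, which 17525 of 17527 entries matched. All 10 genes, the 13 further loci by count, and the 2 largest and 2 smallest differences of neighbours were to be named; genes beside CCP1 were named after their values were seen. The rule for the 10 genes uses identifiers only, but they and the lists were chosen with earlier results of these data known. Alternatives were other denominators, site minimums, sizes, centring and summaries.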

Additional observations from a re-analysis of the deposited data

How the results depend on the processing

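No paired analysis was possible because the wild type has 1 library and the cmd1 KO libraries share 1 column, and for the same reason no library could be left out. The median difference of the 10 genes, 4.58 points (all genes 4.73), was 0.46 points (all genes 0.74) with the wild type site number as denominator. It reversed to -0.12 points (all genes 0.13) with 1.52 times that number, to -0.39 points (all genes -0.16) with 2.02 times, and to -0.26 points (all genes -0.11) with both columns centred on their common median. The number of genes higher in cmd1 KO was then 6, 4, 1 and 4 in place of 10, beside 92.1%, 62.9%, 33.6% and 46.8% of all genes. These shifts follow from the construction: unlisted sites count as 0, and centring subtracts the gap between the column medians from every difference. With at least 20 sites in both columns 8 genes were left, all 8 higher, beside 98.7% of all genes so filtered. Their median was 4.79 points (all genes so filtered 4.72). With at least 30 sites 3 were left, all 3 higher, beside 97.8% of all genes so filtered. Their median was 4.20 points (all genes so filtered 4.70). The mean difference was 5.10 points (all genes 5.12), and the difference of means weighted by sites 5.43 points (all genes 8.81). At least 5 points were reached by 3 genes (41.7% of all genes) in place of 0 at 10 points (3.50%), and at least 20 points by 0 (0.404%). The median of the 13 further loci, 5.05 points, became 0.69, 0.18 and -0.087 points under the 3 denominators, 0.22 points after centring and 5.08 points with at least 20 sites. The site ratio of 0.278 became 0.281 with at least 20 sites and 0.250 without CCP1 and CCP2. After Bonferroni adjustment 8 of the 10 genes, all but LCI1 and CIA5, stayed under 0.05 by the authors' deposited table, beside 84.8% of all genes. The read depth behind every level is unknown.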

Other observations

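Pairs of levels like those of the 10 genes were common in the table for most of them and rare for CCP1. Within 0.1 points of the wild type level and 0.5 points of the cmd1 KO level lay 1265 other genes for CIA5, 1070 for EPYC1 and 968 for LCI1. LCIB had 823 such genes, CCP2 667, LCIA 424, HLA3 258 and BST1 208. LCIC had 133 and CCP1 had 28. The likeness rests on 2 values per gene.

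The cmd1 KO level was also set beside that of genes with a like number of cmd1 KO sites, within 5 sites, a comparison added after the values were seen. Among 608 such genes, the level of CCP1 exceeded 79.9%, a lower place than its 92.1% among all genes. LCIC exceeded 92.8% of 6103 such genes, beside 87.2% of all genes. HLA3 exceeded 19.4% of 1302 and BST1 13.6% of 6034. In this comparison LCIC, and not CCP1, had the highest place of the 10.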
